A study of Mus musculus with 57 samples.

Results

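De novo lipogenesis is the making of fatty acids from glucose and other non-lipid carbon. The genes described here are 10 members of that pathway, picked by name: Acly, Acaca, Acacb, Fasn, Elovl6, Elovl5, Me1, Thrsp, Srebf1 and Mlxipl. They are 10 of the 52853 genes that carry a symbol of their own in the count tables, and all 10 were abundant enough to be tested in all 3 tables. The lowest count of any member in any mouse was 147, for Elovl6.

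Messenger RNA was sequenced from adipose tissue of male C57BL/6J mice that were either wild-type (WT) or homozygous for the R707W substitution in mitofusin 2, a mitochondrial fusion protein (knock-in, KI). Mice were placed at 5 weeks of age on chow or on a high-fat diet (HFD, 45% of energy from fat) and kept on it for 6 months. The 6 groups were inguinal white adipose tissue (WAT) on chow (7 WT and 6 KI mice), inguinal WAT on HFD (8 WT and 8 KI mice) and brown adipose tissue (BAT) on HFD (6 WT and 6 KI mice). The substitution was made in the germline by CRISPR-Cas9 together with a silent restriction site, and the colony descends from 1 founder. Chow KI mice and HFD KI mice carry the same alleles, and the age at the start is that given in the sample descriptions.

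In fat cells the pathway starts with citrate that leaves the mitochondrion. ATP citrate lyase cleaves it to acetyl-CoA, acetyl-CoA carboxylase makes malonyl-CoA, and fatty acid synthase builds palmitate with NADPH that comes in part from malic enzyme. The transcription factors SREBP-1c and ChREBP, which respond to insulin and to glucose metabolites, are the best known activators of these genes, and brown fat, liver and lactating mammary gland are known for high rates of the pathway.

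By role, Acly encodes ATP citrate lyase (Ensembl ENSMUSG00000020917, chr11:100476353-100528000, minus strand of GRCm38). Acaca and Acacb encode the acetyl-CoA carboxylases ACC1, which is cytosolic, and ACC2, which sits at the outer mitochondrial membrane where its malonyl-CoA restrains fatty acid import (chr11:84129672-84401651 and chr5:114146535-114250761, both plus strand). Fasn encodes fatty acid synthase (chr11:120805846-120824547, minus strand). Elovl6 lengthens palmitate to stearate and Elovl5 lengthens polyunsaturated fatty acids (chr3:129532355-129638495 and chr9:77917364-77984519, both plus strand). Me1 is the cytosolic malic enzyme (chr9:86581371-86695953, minus strand), and Thrsp, also called Spot 14, is a small nuclear and cytosolic protein induced with the pathway (chr7:97412938-97417730, minus strand). Srebf1 encodes SREBP-1 and Mlxipl encodes ChREBP (chr11:60199089-60222581, minus strand, and chr5:135089890-135138382, plus strand).

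Promoter sequence is shown for the genes whose KI effect differed between the diets, Acly, Fasn, Elovl6 and Me1. Their values moved together across mice, as described below, but so did those of Acaca and Thrsp, which are not shown. Each line gives the 150 bases before a RefSeq start site (GRCm38.p6), read 5′ to 3′ on the gene's strand, and capitals mark matches on either strand to CCAAT (bound by NF-Y), GGGCGG (bound by Sp1), CACGTG (an E-box) or TCACNCCAC (a sterol regulatory element). The coordinates are chr11:100528001-100528150 for Acly, chr11:120824548-120824697 for Fasn, chr3:129532236-129532385 for Elovl6 and chr9:86695915-86696064 for Me1.
Acly: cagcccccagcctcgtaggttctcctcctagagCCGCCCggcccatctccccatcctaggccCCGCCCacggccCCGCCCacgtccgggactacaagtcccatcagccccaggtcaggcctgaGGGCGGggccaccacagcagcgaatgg
Fasn: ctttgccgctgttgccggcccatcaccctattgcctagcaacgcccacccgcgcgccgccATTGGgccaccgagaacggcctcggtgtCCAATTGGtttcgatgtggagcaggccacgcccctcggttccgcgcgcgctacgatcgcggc
Elovl6: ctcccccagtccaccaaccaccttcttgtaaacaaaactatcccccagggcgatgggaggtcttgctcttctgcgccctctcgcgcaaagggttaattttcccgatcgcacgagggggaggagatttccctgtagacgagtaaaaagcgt
Me1: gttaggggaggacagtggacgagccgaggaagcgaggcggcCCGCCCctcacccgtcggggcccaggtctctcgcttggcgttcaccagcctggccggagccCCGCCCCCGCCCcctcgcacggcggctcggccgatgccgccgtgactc
The Fasn window held 3 CCAAT matches, one pair of which overlaps by 2 bases, while the Acly window held 4 GGGCGG matches and the Me1 window 3. The Elovl6 window held no match to any of the letters searched. Me1 has another RefSeq start, at chr9:86687277, whose 150 bases held no match and are not shown. All 10 members had at least 1 RefSeq start, 14 in all. Over the 250 bases before each start, CCAAT occurred in 8 of the 14 against 33.8% of all 32851 promoters in the table, and GGGCGG in 5 of the 14 against 32.7%. CACGTG occurred in 2 against 6.02%, and TCACNCCAC in 1 against 1.05%.

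That 1 match belonged to Mlxipl, which has 2 RefSeq starts 17001 bases apart. Both windows are shown because counts summed over the gene cannot separate the transcripts that begin at each.
Mlxipl upstream start, chr5:135089740-135089889: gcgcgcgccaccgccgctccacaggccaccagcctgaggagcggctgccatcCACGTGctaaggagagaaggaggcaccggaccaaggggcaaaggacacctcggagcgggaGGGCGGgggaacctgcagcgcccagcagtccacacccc
Mlxipl downstream start, chr5:135106741-135106890: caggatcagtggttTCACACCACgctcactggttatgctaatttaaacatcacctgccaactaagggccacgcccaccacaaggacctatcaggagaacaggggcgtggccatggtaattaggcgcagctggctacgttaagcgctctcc
The upstream window held CACGTG and GGGCGG, and the downstream window held TCACACCAC.

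Total counts per mouse ranged from 8042591 to 10522554 in BAT, from 8668279 to 11720458 in inguinal WAT on chow and from 17572752 to 25680411 in inguinal WAT on HFD, where the descriptions list 2 libraries for each mouse and the table holds 1 column for each. Chow inguinal WAT, HFD inguinal WAT and BAT each form a table of their own, so diet or tissue and table cannot be told apart. The gene counts do not show the substitution itself, and Mfn2 did not pass the threshold in any table (log2 fold change 0.34, 0.37 and 0.29 in inguinal WAT on HFD, inguinal WAT on chow and BAT, with adjusted p = 0.0114, 0.0789 and 0.113). Adipocyte markers summed to between 24044 and 45715 CPM in every mouse, and Ucp1, the defining brown fat transcript, had a median of 6311 CPM in WT BAT and of 0.190 to 0.433 CPM in the inguinal groups. Some libraries stood apart. The 6 skeletal muscle markers summed to 58511 CPM in chow KI mouse 4, against at most 3661 CPM in any other mouse. Chow WT mouse 4 had the highest sums of epithelial (121 CPM, at most 15.2 elsewhere) and macrophage markers (2195 CPM, at most 1484 elsewhere). In inguinal WAT on HFD, lymphocyte markers summed to 613 CPM in KI mouse 2, 416 CPM in WT mouse 2 and 221 CPM in WT mouse 6. The medians of the KI and WT groups there were 9.44 and 14.5 CPM. The same sum was 359.6 CPM in chow KI mouse 3, against a group median of 6.16 CPM.

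On chow, 4 of the 10 lipogenic genes of inguinal WAT were called higher in KI than in WT mice. Acly, Acaca, Acacb and Elovl6 passed the threshold of an adjusted p below 0.01 in edgeR's quasi-likelihood test, at 5.74-fold, 4.69-fold, 3.97-fold and 8.99-fold, and none of the 10 was lower. Of all 14629 genes tested in that table, 2.06% were called higher and 1.22% lower. At an adjusted p below 0.05, the count rose to 7 of 10 members against 8.63% of all genes. The median log2 fold change of the 10 was 1.82 in a table whose genes as a whole had a median of -0.000114. Because these are whole tissues, a change in the number of cells of a type and a change in RNA per cell cannot be told apart.

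Acly, the citrate-cleaving enzyme, lay between 113 and 218 CPM in the 7 WT mice (median 151) and between 307 and 2277 CPM in the 6 KI mice (median 615). CPM here are counts scaled to library size by TMM within the table. The genotypes did not overlap, and the log2 fold change was 2.52 ± 0.40 (SE, adjusted p = 0.00195 by edgeR). Acaca was also without overlap, from 107 to 438 CPM in WT mice (median 275) and from 456 to 2780 CPM in KI mice (median 909), with a log2 fold change of 2.23 ± 0.41 (adjusted p = 0.00474 by edgeR). Srebf1 was the third member whose genotypes did not overlap, at 180 to 311 CPM in WT mice (median 252) and 322 to 930.2 CPM in KI mice (median 399), although its log2 fold change of 0.88 ± 0.23 had an adjusted p of 0.0276 by edgeR. Over all genes tested in that table, 4.36% showed no overlap between genotypes.

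Elovl6 had the highest fold change of the 10. It lay between 13.7 and 42.2 CPM in WT mice (median 22.4) and between 41.1 and 604 CPM in KI mice (median 105), and 5 of the 6 KI mice exceeded every WT mouse (log2 fold change 3.17 ± 0.57, adjusted p = 0.00492 by edgeR). The ACC2 gene Acacb ranged from 37.1 to 140 CPM in WT mice (median 58.9) and from 126 to 550 CPM in KI mice (median 308), again with 5 of 6 KI mice above all WT mice (log2 fold change 1.99 ± 0.37, adjusted p = 0.00560 by edgeR). The other elongase, Elovl5, averaged 96.0 ± 14.6 CPM (SD, n = 7) in WT and 95.7 ± 10.6 CPM (SD, n = 6) in KI mice, a log2 fold change of -0.01 ± 0.10.

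Fasn was the most abundant member by count. Its values lay between 813 and 3093 CPM in WT mice (median 1725) and between 1985 and 18928 CPM in KI mice (median 4535), and it took up to 1.75% of all counts in a KI mouse against at most 0.310% in a WT mouse. Despite a log2 fold change of 2.00 ± 0.46, its adjusted p of 0.0153 by edgeR missed the threshold. Me1 (294 to 528 CPM in WT, 518 to 2950 CPM in KI, log2 fold change 1.66 ± 0.36, adjusted p = 0.0119) missed it too. Thrsp (427 to 1099 CPM in WT, 795 to 3764 CPM in KI, log2 fold change 1.21 ± 0.36, adjusted p = 0.0518) and Mlxipl (68.1 to 194 CPM in WT, 103 to 436 CPM in KI, log2 fold change 0.96 ± 0.32, adjusted p = 0.0819) had smaller differences with overlapping ranges.

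The KI mice on chow differed widely among themselves. KI mouse 1 was the highest of the 13 mice for Acly, Acaca, Acacb, Fasn, Elovl6, Me1, Thrsp, Srebf1 and Mlxipl, and KI mouse 3 was next for Acly, Acaca, Fasn, Elovl6, Me1 and Thrsp, whereas KI mouse 5 was the lowest KI mouse for each of those 9 genes. Without KI mice 1 and 3 the log2 fold change of Acly was 1.61 (adjusted p = 0.000802 by edgeR) and that of Elovl6 1.82 (0.00595), both still past the threshold, and Acaca at 1.61 (adjusted p = 0.0168 by edgeR) and Acacb at 1.64 (adjusted p = 0.0347) were not. Leaving out single mice kept Acly past the threshold in 13 of 13 fits, Acaca in 10, Elovl6 in 6 and Acacb in 4. The mice whose removal ended the Acaca call were WT mice 3, 6 and 7 (adjusted p from 0.0111 to 0.0131 by edgeR). The Elovl6 call ended without WT mice 1, 2, 3, 4, 6 or 7 or KI mouse 3, and the Acacb call without WT mice 2, 3, 4, 5 or 6 or KI mice 1, 2, 3 or 6, with adjusted p of at most 0.0140 and 0.0146.

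Marker sums of other cell types were set beside the chow difference. The 6 brown adipocyte markers summed to between 149 and 841 CPM in the KI mice and between 37.2 and 117 CPM in the WT mice, with KI mouse 1 highest and KI mouse 5 lowest of the KI mice, against at least 12078 CPM in BAT. Of the 3 of these markers abundant enough to test, Cidea (log2 fold change 3.03) and Cox8b (2.42) were called higher, while Ucp1 stayed at or below 9 counts in every mouse on chow. The 7 lymphocyte markers summed to 360 CPM in KI mouse 3 and 101 CPM in KI mouse 1, against at most 6.84 CPM in the other KI mice and 6.66 to 87.9 CPM in WT mice. The median lymphocyte sum was 6.16 CPM in KI and 9.56 CPM in WT mice. The part of these lists in the lipogenic differences was not tested.

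**Figure D1:**
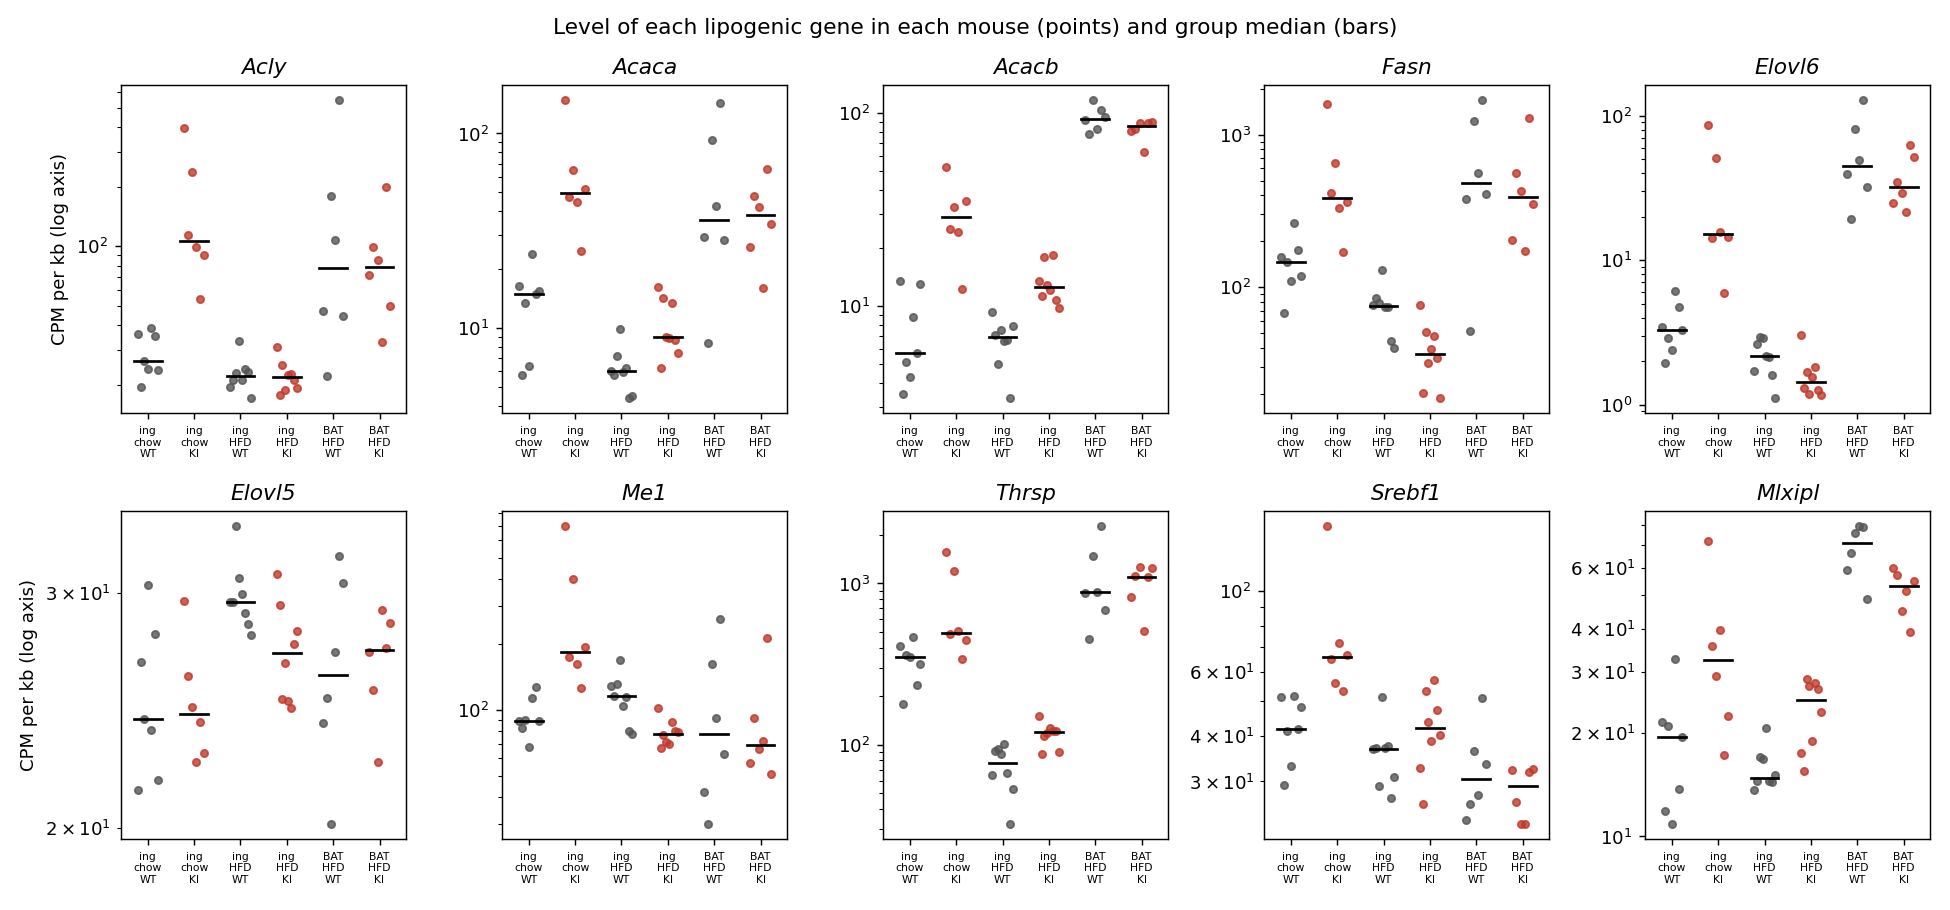
Level of each of the 10 genes in each of the 41 mice, in CPM per kb of the given gene length on a log axis, with WT mice in grey, KI mice in red and the group median as a bar. On chow the KI points of 9 genes lie mostly above the WT points, Elovl5 spans 1.20-fold between its lowest and highest group mean, and Elovl6 spans 36.0-fold.

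On HFD, the same tissue showed a mixed pattern in which some lipogenic genes were higher and others lower in KI mice. Acacb (2.00-fold) and Mlxipl (1.46-fold) were called higher, and Me1 was called lower, its WT level being 1.46-fold that of KI. Over all 16471 genes tested, 6.21% were called higher and 5.24% lower, so that 54.2% of the calls were higher, a share that became 73.6% when counts were scaled by their totals. At an adjusted p below 0.05, 6 of 10 members were called against 20.9% of all genes. The median log2 fold change of the members was 0.10, against 0.01 over all genes, with 5 members on either side of 0.

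Acacb was the clearest of them. It lay between 35.8 and 99.98 CPM in the 8 WT mice (median 74.8) and between 106 and 196 CPM in the 8 KI mice (median 135), with no overlap (log2 fold change 1.00 ± 0.18, adjusted p = 0.000708 by edgeR), and it was called in all 16 fits that left out 1 mouse. It was the only one of the 10 without overlap, where 4.75% of all genes tested had none. Mlxipl lay between 84.3 and 128 CPM in WT mice (median 91.5) and between 98.5 and 178 CPM in KI mice (median 153), and 5 of 8 KI mice exceeded every WT mouse (log2 fold change 0.54 ± 0.13, adjusted p = 0.00448 by edgeR). Its call was lost on leaving out KI mice 3, 4, 6 or 7 or WT mice 1 or 6, with an adjusted p of at most 0.0149.

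Me1 lay between 329 and 742 CPM in WT mice (median 499) and between 293 and 442 CPM in KI mice (median 335), with 3 KI mice below every WT mouse. Its log2 fold change of -0.55 ± 0.14 had an adjusted p of 0.00982 by edgeR, close to the threshold, and only 3 of the 16 fits without 1 mouse kept the call. The fits that kept it left out KI mouse 1 or WT mice 7 or 8.

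Fasn and Acaca, which catalyse neighbouring steps, stood on opposite sides. Fasn lay between 483 and 1616 CPM in WT mice (median 924) and between 229 and 942 CPM in KI mice (median 447), with 4 KI mice below every WT mouse (log2 fold change -0.92 ± 0.29, adjusted p = 0.0312 by edgeR). Acaca lay between 82.8 and 194 CPM in WT mice (median 114) and between 123 and 311 CPM in KI mice (median 171), with 3 KI mice above every WT mouse (log2 fold change 0.75 ± 0.21, adjusted p = 0.0160 by edgeR). Neither passed the threshold of 0.01. Acaca did so in the fit without KI mouse 2 (adjusted p = 0.00627) and in that without WT mouse 4 (0.00526), and Fasn in the fit without KI mouse 1 (0.00667).

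Taken as a ratio within each mouse, where scaling between libraries cancels, the level of Fasn per kb was 8.93 to 14.8 times that of Acaca in the WT mice on HFD and 2.52 to 4.73 times in the KI mice. The ranges did not overlap. In the other 4 groups the ratio lay between 6.15 and 19.4 in each mouse, so that the 8 KI mice on HFD were the lowest 8 of all 41. Of the 45 pairs of members, 9 had ratios without overlap between genotypes on HFD, 10 on chow and 0 in BAT. Many of these pairs share a gene, so they are not separate results. Ratios of other genes were not taken, so how common such ratios are among all genes is not known. Thrsp to Fasn was another such pair on HFD, its median ratio differing 3.45-fold between genotypes, against 3.42-fold for Acaca to Fasn. The ratio of Fasn to Acaca was chosen after its values were seen, and is given with no test.

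**Figure D2:**
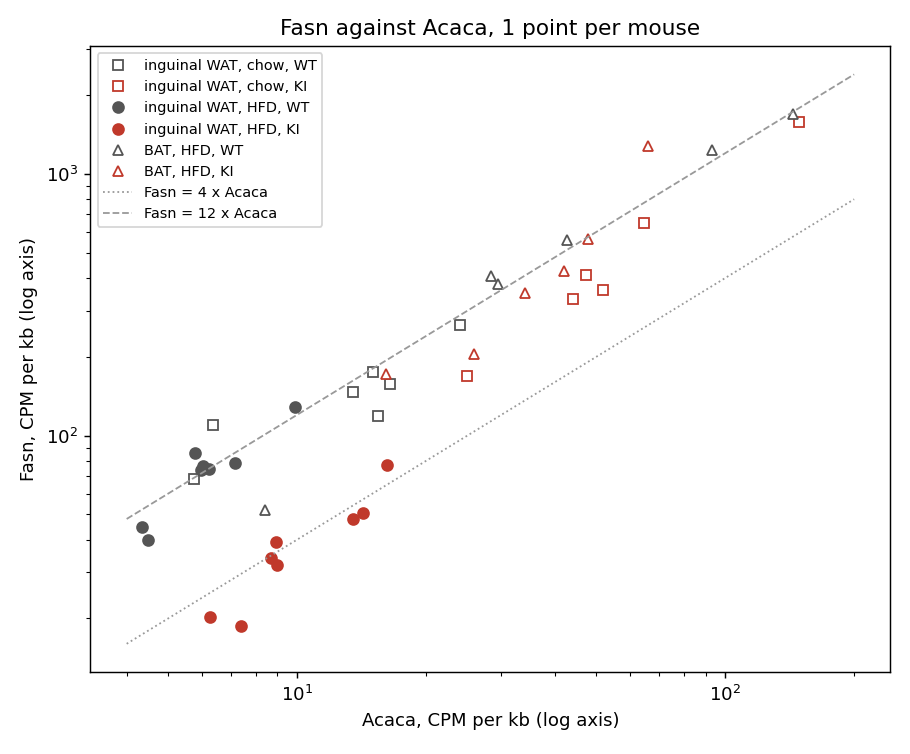
Fasn against Acaca in CPM per kb, both on log axes, with 1 point for each of the 41 mice and guide lines where Fasn is 4 and 12 times Acaca. The 8 KI mice on HFD (filled red circles) lie near the lower line, at ratios of 2.52 to 4.73, and the 8 WT mice on HFD (filled grey circles) near the upper line.

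None of the other members was called on HFD. Thrsp lay between 78.6 and 247 CPM in WT mice (median 192) and between 219 and 371 CPM in KI mice (median 290), with 6 KI mice above every WT mouse (log2 fold change 0.64 ± 0.19, adjusted p = 0.0225 by edgeR). Elovl6 was scarce, at 7.82 to 21.3 CPM in WT mice and 8.38 to 21.8 CPM in KI mice (log2 fold change -0.41 ± 0.22). Srebf1 (log2 fold change 0.23 ± 0.15), Elovl5 (-0.14 ± 0.06) and Acly (-0.04 ± 0.13) had overlapping ranges, and the lowest adjusted p of these was 0.125, for Elovl5. For Acly the 16 mice spanned 99.8 to 202 CPM, while on chow the KI mice alone reached 2277 CPM.

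In BAT on HFD, 0 of the 10 members was called, at edgeR's threshold of 0.01 or at 0.05. Of all 13267 genes, 1.36% were called higher, 0.475% lower and 7.18% at an adjusted p below 0.05 in either direction. All 10 fitted log2 fold changes were below 0, with a median of -0.34 against -0.01 over all genes, and only Mlxipl had an unadjusted p below 0.05. By median CPM, KI mice were above WT mice for Thrsp (1852 against 1551), Acaca (503 against 495) and Elovl5 (73.7 against 73.5), and below for the other members. Many of the members varied together, as described below, so their directions are not separate results. Mlxipl lay between 216 and 352 CPM in the 6 WT mice (median 313) and between 163 and 263 CPM in the 6 KI mice (median 233), with 2 KI mice below every WT mouse (log2 fold change -0.43 ± 0.14, adjusted p = 0.0765 by edgeR). DESeq2 called 0 members as well. No member was without overlap, where 3.56% of all genes were.

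The spread between BAT mice was large for the synthetic enzymes and small for others. Fasn ranged from 456 to 14145 CPM in WT mice (median 4222) and from 1502 to 10513 CPM in KI mice (median 3282), and its log2 fold change of -0.56 had an SE of 0.70. Acly ranged from 94.4 to 2215 CPM in WT mice (median 329) and from 139 to 795 CPM in KI mice (median 321), with a log2 fold change of -0.83 ± 0.75. WT mice 5 and 3 held the highest values of Fasn, Acaca and Elovl6 in BAT, and WT mouse 2 the lowest. Without WT mice 3 and 5, the log2 fold changes of Acly, Acaca, Fasn, Elovl6, Me1 and Thrsp were above 0 (from 0.063 for Elovl6 to 0.67 for Me1), none called. These mice were left out because their values were high, and WT mouse 2 was kept. Leaving out the highest WT mice raises the difference by construction, so this fit cannot decide the direction of these 6 in BAT.

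Acacb and Elovl5 were steadier in BAT. Acacb lay between 600 and 883 CPM in WT mice (median 723) and between 482 and 675 CPM in KI mice (median 631), a log2 fold change of -0.23 ± 0.12. Elovl5 averaged 73.9 ± 11.5 CPM (SD, n = 6) in WT and 73.0 ± 7.54 CPM (SD, n = 6) in KI mice. The remaining log2 fold changes were -0.59 ± 0.57 for Acaca, -0.66 ± 0.42 for Elovl6, -0.26 ± 0.53 for Me1, -0.16 ± 0.33 for Thrsp and -0.26 ± 0.16 for Srebf1.

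**Figure D3:**
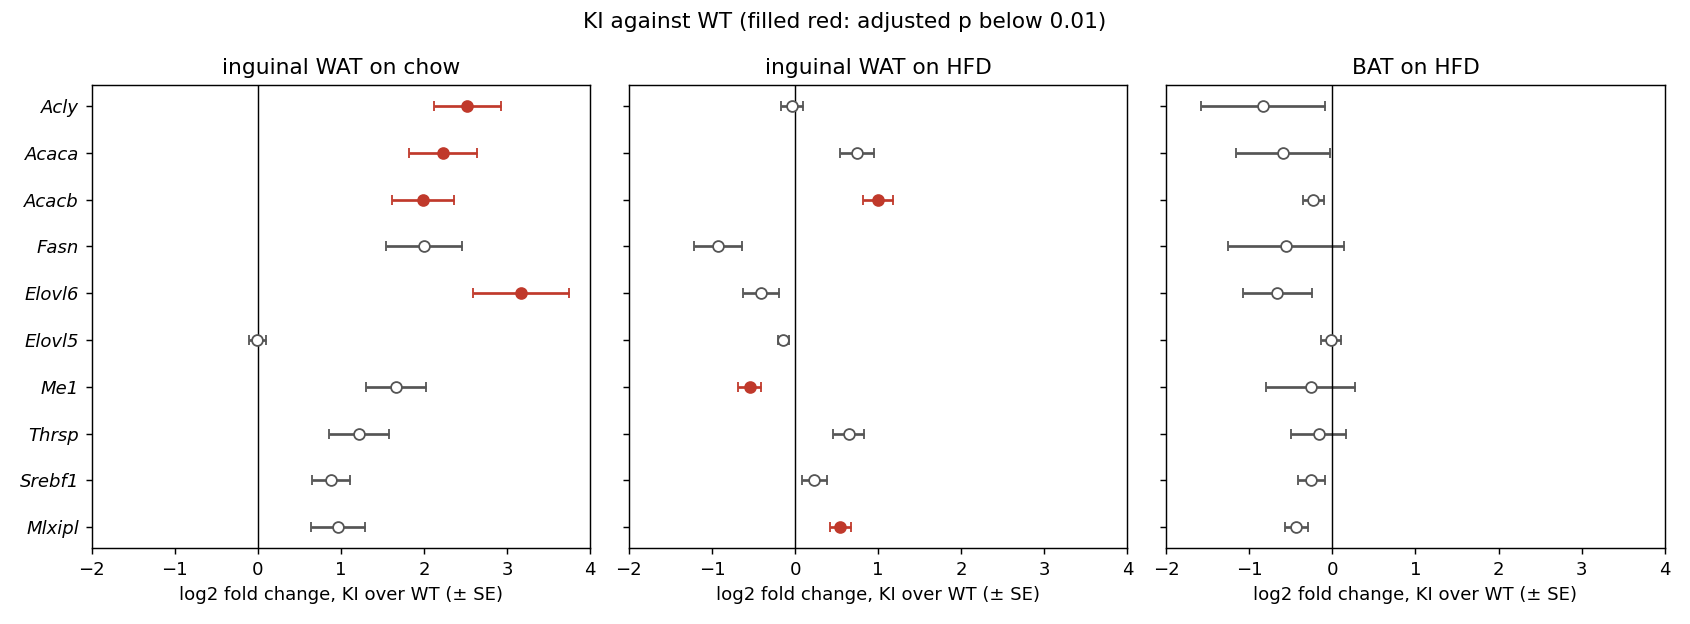
Log2 fold change of KI over WT with its standard error for the 10 genes in inguinal WAT on chow, inguinal WAT on HFD and BAT on HFD, from edgeR, with filled red points at an adjusted p below 0.01. Elovl6 on chow is farthest to the right at 3.17, and all 10 points in BAT lie left of 0 with none filled.

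An exact permutation test of the mean log2 CPM, 2-sided, was run for each member in each table, 30 tests in all without adjustment. Acacb on HFD gave p = 0.000155, the smallest that 8 against 8 mice allow. On chow, Acly, Acaca and Srebf1 gave p = 0.000583, the smallest that 6 against 7 mice allow, and Fasn gave p = 0.00350 by the same exact test. Values without overlap between genotypes must give the smallest p of this test. For Acacb on HFD and for Acly, Acaca and Srebf1 on chow, it therefore restates the lack of overlap given above. In BAT, where the smallest possible value was 0.00216, Mlxipl had the lowest at an exact permutation p of 0.0216.

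Whether the KI effect differed between the diets was tested as an interaction over the 29 inguinal mice. It differed for Acly (log2 difference, HFD effect minus chow effect, -2.53 ± 0.40, adjusted p = 0.000773 by edgeR), Fasn (-2.89 ± 0.54, adjusted p = 0.00367), Elovl6 (-3.55 ± 0.59, adjusted p = 0.00124) and Me1 (-2.18 ± 0.38, adjusted p = 0.00145). These are 4 of 10 members, where 0.845% of all 17400 genes were called. All 4 had fitted log2 fold changes below 0 on HFD and above 0 on chow, although only Me1 was called on HFD and only Acly and Elovl6 on chow. Acaca (-1.45 ± 0.45, adjusted p = 0.0723), Acacb (-0.97 ± 0.40, adjusted p = 0.209), Thrsp (-0.54 ± 0.40, adjusted p = 0.542), Srebf1 (-0.63 ± 0.27, adjusted p = 0.233), Mlxipl (-0.39 ± 0.34, adjusted p = 0.617) and Elovl5 (-0.12 ± 0.11, adjusted p = 0.667) were not called. Without chow KI mouse 4, whose library held muscle transcripts, the called genes were the same 4. Without chow KI mice 1 and 3 they were Acly, Elovl6 and Me1, and Fasn was at -2.0 (adjusted p = 0.0291).

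Levels in the HFD table were set against those in the chow table within each genotype. In WT inguinal WAT, Thrsp was lower on HFD by a log2 difference of -2.20 ± 0.29 (adjusted p = 6.42e-07 by edgeR) and Acaca by -1.18 ± 0.31 (adjusted p = 0.00340), 2 of 10 members called lower and 0 higher, beside 16.6% and 11.7% of all genes. In KI inguinal WAT, 8 of 10 were called lower and 0 higher, beside 16.6% and 14.1%. The largest falls in KI mice were those of Elovl6 (log2 difference -4.31 ± 0.45, adjusted p = 2.42e-08 by edgeR), Fasn (-3.90 ± 0.41) and Acly (-2.92 ± 0.29), and the members not called were Mlxipl (-0.67 ± 0.24, adjusted p = 0.0272) and Elovl5 (0.09 ± 0.08). Without chow KI mice 1 and 3 the differences were -2.98 for Elovl6, -3.01 for Fasn and -2.02 for Acly, and 7 members were called, Acacb being at -0.87 (adjusted p = 0.0299 by edgeR). Both of these comparisons use the groups of the KI comparisons above.

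BAT held much more of most lipogenic transcripts than inguinal WAT on the same diet. Whether both tissues came from the same animals is not in the labels, and the fits treated their columns as independent. In WT mice 7 members were called higher in BAT and 0 lower, against 26.9% and 29.0% of all 17214 genes. The log2 differences of these 7 were 4.82 ± 0.37 for Elovl6, 3.96 ± 0.30 for Thrsp, 3.88 ± 0.18 for Acacb, 3.30 ± 0.53 for Fasn, 3.26 ± 0.42 for Acaca, 2.84 ± 0.49 for Acly and 2.16 ± 0.14 for Mlxipl. Without BAT WT mice 3 and 5 all 7 were still called, with Fasn at 2.27, Acaca at 2.18 and Acly at 1.34. The same 7 were called higher in KI mice, against 28.4% of all genes, and Srebf1 was called lower (-0.52 ± 0.17, adjusted p = 0.00742 by edgeR), against 30.7%. Me1 and Elovl5 were not called in either genotype.

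The KI effect differed between the tissues on HFD for 2 of 10 members, where 2.82% of all genes did. They were Acacb (log2 difference, BAT effect minus inguinal effect, -1.19 ± 0.24, adjusted p = 0.00168 by edgeR) and Mlxipl (-0.94 ± 0.20, adjusted p = 0.00262), each higher in KI than WT mice in inguinal WAT and lower by fitted value in BAT. Without BAT WT mice 3 and 5, Acacb was still called, and Mlxipl was at -0.85 (adjusted p = 0.0119). For Fasn the difference was 0.40 ± 0.72.

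Set on 1 scale across the 41 mice and divided by the length given for each gene with the counts, the levels allow members to be ordered. That length (17074 bases for Acaca) may differ from that of the transcripts present, which would shift a gene's level per kb in all groups alike. In WT BAT the order of median CPM per kb over 6 mice was Thrsp (879.7, range 449.6 to 2284), Fasn (484, range 51.7 to 1688), Acacb (93.1, range 77.2 to 117), Acly (77.8, range 22.2 to 548), Me1 (77.2, range 29.9 to 262), Mlxipl (71.0, range 48.9 to 79.7), Elovl6 (44.7, range 19.3 to 129), Acaca (36.1, range 8.42 to 144), Srebf1 (30.5, range 23.6 to 51.0) and Elovl5 (26.0, range 20.1 to 32.0). Neighbours in this order had overlapping ranges. By mean CPM per kb in WT inguinal WAT on HFD, Me1 led (115 ± 29.5, SD, n = 8), followed by Fasn (75.3 ± 27.2) and Thrsp (74.0 ± 23.8), which did not differ beyond their spread, and Elovl6 was last (2.15 ± 0.657).

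The balance of the carboxylases differed between the groups by level. Acacb per kb was 0.366 to 0.848 times Acaca in the WT mice on chow, 0.699 to 1.76 times in WT inguinal WAT on HFD and 0.722 to 9.18 times in WT BAT. In KI mice the ratio was 0.351 to 0.676 on chow, 0.832 to 1.81 on HFD and 1.35 to 3.89 in BAT, overlapping WT in each. Elovl6 per kb was 0.0733 to 0.259 times Elovl5 in WT mice on chow and 0.248 to 2.90 times in KI mice. On HFD it was at most 0.0978 times Elovl5 in any inguinal mouse.

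Within groups, 6 of the members varied together from mouse to mouse. This set of 6 was not named in advance, and in inguinal WAT on HFD its lowest pair was at 0.373. After each group mean was subtracted, the 15 pairs among Acly, Acaca, Fasn, Elovl6, Me1 and Thrsp had Pearson correlations of 0.71 to 0.952 over the 41 mice, which share their group, table and scaling. The highest was that of Acaca with Fasn (0.952), including on HFD (0.937 over 16 mice), where the genotypes differed in the ratio of these genes. Srebf1 was correlated with the 6 at 0.571 to 0.684, Acacb at 0.400 to 0.608 and Mlxipl at 0.336 to 0.508. Elovl5 stood at -0.284 to 0.246 with the other 9 members. These values describe the mice and carry no test.

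**Figure D4:**
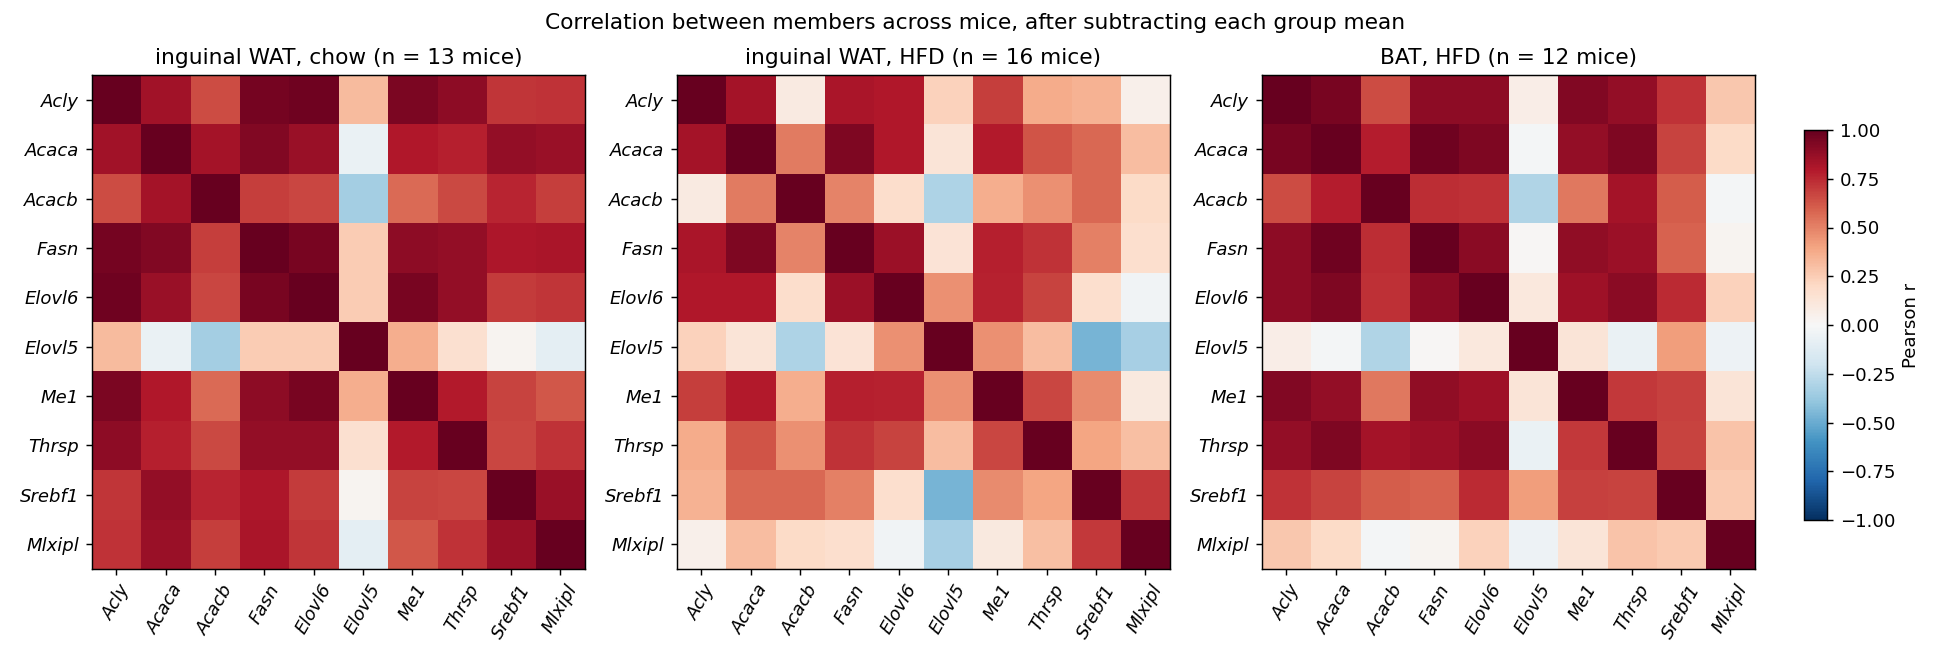
Pearson correlation between the 10 genes across mice within each table, after subtracting the mean of each genotype, from -1 (blue) to 1 (red). Acly, Acaca, Fasn, Elovl6, Me1 and Thrsp form a block of 0.373 to 0.976 over the 3 tables, and the row of Elovl5 runs from -0.465 to 0.456.

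The genes whose deviations were most like the mean of the 10 members over the 41 mice, of 13024 others tested in all 3 tables, were Tkt (r = 0.949), Pdhb (0.939), Slc25a1 (0.924), Acss2 (0.910) and Dlat (0.900). Tkt encodes transketolase, Pdhb and Dlat are subunits of pyruvate dehydrogenase, Slc25a1 is the mitochondrial citrate carrier and Acss2 makes cytosolic acetyl-CoA from acetate. In KI mice on HFD, Slc25a1 (log2 fold change -1.08 ± 0.17) and Acss2 (-1.09 ± 0.20) were called lower and Tkt (0.91 ± 0.13) and Pdhb (0.35 ± 0.09) higher. On chow, Tkt (2.32 ± 0.33), Pdhb (1.54 ± 0.23) and Dlat (0.97 ± 0.15) were called higher, and Slc25a1 (1.86 ± 0.43) had an adjusted p of 0.0174 by edgeR.

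Genes around the pathway were followed as lists. The shares of all genes called higher and lower, to be read beside these counts, were 6.21% and 5.24% in inguinal WAT on HFD, 2.06% and 1.22% on chow, and 1.36% and 0.475% in BAT. In inguinal WAT on HFD, carbon and NADPH suppliers had 5 of 10 called lower and 1 higher (median log2 fold change -0.35 against 0.01 over all genes), the ends being Slc25a10, the mitochondrial dicarboxylate carrier (-1.32 ± 0.14), and Me3, a mitochondrial malic enzyme (1.45 ± 0.19). Desaturation and elongation partners had 3 higher and 4 lower of 13 tested out of 18 (median 0.05), led by Scd3 (3.65 ± 0.38) and Scd2 (-1.96 ± 0.21), desaturases of 1 family whose close copies may share reads. SREBP processing had 1 of 12 called, Insig1, which retains SREBP in the endoplasmic reticulum and is itself an SREBP target (-2.10 ± 0.25, median 0.05). ChREBP partners and other targets had 3 higher, led by Txnip (0.51 ± 0.09), and 2 lower, led by Pnpla3 (-2.21 ± 0.24), of 10 tested out of 11 (median -0.11). ACC control had 5 of 12 higher, led by Trib3, a pseudokinase known to promote ACC degradation (3.18 ± 0.22, median 0.22), and 0 of 6 mitochondrial fatty acid synthesis genes were called (median 0.01).

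The list genes called on chow were Me3 (log2 fold change 1.69 ± 0.33), Scd3 (5.22 ± 0.68) and Trib3 (3.65 ± 0.27), 1 from each of their lists and all higher, with list medians of 0.71 for carbon and NADPH supply, 0.12 for desaturation, -0.05 for SREBP processing, 0.16 for ChREBP partners, 0.31 for ACC control and 0.14 for mitochondrial synthesis. In BAT the list genes called were Scd3 (5.93 ± 0.73) and Trib3 (3.54 ± 0.51), with list medians between -0.11 and 0.19. Trib3 was thus called higher in each of the 3 tables.

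Other cell types were checked beside these results. In inguinal WAT on HFD, 1 of 8 adipocyte markers was higher (Lipe) and 1 lower (Adipoq), 2 of 3 tested brown adipocyte markers were higher with list sums of 25.3 to 57.8 CPM in KI and 12.6 to 31.6 CPM in WT mice and Ucp1 at or below 45 counts, and 1 of 6 fibroblast markers was lower (Dpt). Fibroblast sums on chow were 1757 to 2756 CPM in KI and 2215 to 5380 CPM in WT mice, with 1 of 6 markers called lower. In BAT, 2 of 6 fibroblast markers were lower, with sums of 329.7 to 589.5 CPM in KI and 522 to 1251 CPM in WT mice. No macrophage, lymphocyte, endothelial or muscle marker that could be tested was called in any table, and all epithelial ones were too scarce to test. Other markers were too scarce as well. Of the 6 muscle markers, 2 were tested on chow and 1 in BAT. Of the 7 lymphocyte markers, 6 were tested on chow and 2 in BAT. Though uncalled, all 7 macrophage markers had log2 fold changes below 0 in both inguinal tables. Their medians were -0.33 on HFD and -0.50 on chow. In BAT, 6 macrophage markers were below 0 and 1 above. The part of these cells in the lipogenic results was not tested.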

How the data were processed

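Adipose RNA was sequenced as polyA libraries with paired reads of 150 bases, and the 41 columns of counts are called 41 mice here. Whether BAT and inguinal WAT on HFD with the same mouse number came from the same animal is not in the labels. The number of animals may therefore be lower. Per the labels, the submitters used cutadapt, STAR, SAMtools and featureCounts with GRCm38 (versions not given in the sources used here), and the authors deposited raw counts per gene, 1 table per tissue and diet, with 1 column for each mouse also where the labels list 2 libraries (inguinal WAT on HFD); how these were joined is not given. Strand use in counting is not given in the sources used here.

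Of 54838 entries, 1884 without values and repeated entries of 99 symbols were left out, which kept 52853 genes. Counts were tested with edgeR 4.0.16 (R 4.3.3): filterByExpr, TMM, robust quasi-likelihood F tests with genotype or group as the only term, and Benjamini-Hochberg adjustment over all genes of a fit. A call is an adjusted p below 0.01. Diet, tissue and interaction contrasts came from fits of 4 groups. Standard errors are the fold change over the square root of F. DESeq2 1.42.0 was an alternative. Permutation tests used log2 CPM with a prior count of 2. Levels across tables used 1 TMM scaling of all 41 columns, divided by the gene length given in the files.

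No 2 mice of a group had identical counts, and no column was left unused. Scripts were tested on simulated data. The members and gene lists were chosen with earlier results of these data known. All 10 members were named, together with Mfn2, the called gene with the largest log2 fold change in each direction of each pathway list and comparison, and the 5 genes most like the mean of the members. Ratios of members, and the other genes named as cell type markers, were added after values were seen. The set of 6 members that varied together was not named in advance. With 6 to 8 mice a group, p-values weigh a difference against the spread between these mice only. Alternatives were other scalings, filters, thresholds, a fit of all 6 groups, mouse number as a block, and fits without single mice. Promoter sequence is RefSeq's, build GRCm38.p6.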

Additional observations from a re-analysis of the deposited data

Results flagged for a closer look

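Of 60 groups of values (10 genes in 6 groups), 10 had a highest or lowest mouse far from the others by Dixon's criterion, where chance gives about 1 in 20, or 3. On chow, KI mouse 1 stood apart for Acaca (2780 CPM, next 1247), Fasn (18928 CPM, next 8050) and Srebf1 (930.2 CPM, next 447). In inguinal WAT on HFD, WT mouse 4 stood apart for Acly (202 CPM) and Srebf1 (330.2 CPM), and KI mouse 1 for Elovl6 (21.8 CPM). In BAT, WT mouse 5 stood apart for Acly (2215 CPM), KI mouse 5 for Fasn (10513 CPM) and Me1 (620.0 CPM), and KI mouse 4, at the low end, for Acacb (482 CPM).

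The KI effect differed between the diets in edgeR's interaction test for Acly (-2.53 on the log2 scale, HFD minus chow), Fasn (-2.89), Elovl6 (-3.55) and Me1 (-2.18). It differed between BAT and inguinal WAT on HFD for Acacb (-1.19, BAT minus inguinal) and Mlxipl (-0.94).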

How the results depend on the processing

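Counts of called members moved with the model and threshold. In inguinal WAT on HFD, the 3 calls became 5 with DESeq2, 1 in one fit of all 6 groups, 6 at an adjusted p below 0.05, 1 below 0.001, and 1 to 4 when single mice were left out. Over all genes there, 1886 of 16471 were called in the main fit, 2754 of 19630 with DESeq2 and 1242 of 16201 in the fit of all 6 groups. At an adjusted p below 0.05 the main fit called 3448 genes, and below 0.001 it called 880. On chow the 4 calls became 7 with DESeq2, 1 without a filter, 9 in one fit of all 6 groups, 7 below 0.05, 0 below 0.001, 2 without KI mice 1 and 3, and 1 to 6 without single mice. BAT had 0 calls in each of these. Over all genes on chow, 479 of 14629 were called in the main fit, 1263 at an adjusted p below 0.05, and 284 of 14903 without KI mice 1 and 3. The diet difference had 4 calls, 1 in the fit of all 6 groups and 1 below 0.001. HFD against chow in WT had 2 calls, 1 in the fit of 6 groups, 4 below 0.05 and 1 below 0.001, and the tissue difference had 2, 0 in the fit of 6 groups, 0 below 0.001 and 1 without BAT WT mice 3 and 5. Alternatives that left out pairs of mice were chosen after seeing the data. Where the count over all genes is not given, the count of members cannot show whether members moved more than other genes. Me1 on HFD also lost its call with total counts (adjusted p = 0.0134 by edgeR) and without a filter (0.0108).

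Directions turned for log2 differences near 0 and in some fits that left out mice. With total counts they were 0.049 for Acly on HFD, 0.013 for Elovl5 in the diet difference, and -0.58 for Elovl5 and -0.37 for Me1 between tissues in KI mice. Elovl5 in BAT was 0.021 in the fit of 6 groups. Without BAT WT mice 3 and 5, KI against WT in BAT was 0.67 for Acly, 0.48 for Acaca, 0.48 for Fasn, 0.063 for Elovl6, 0.67 for Me1 and 0.44 for Thrsp, and the tissue difference was 0.73 for Acly and 0.50 for Elovl6. Without chow KI mice 1 and 3 the diet difference of Thrsp was 0.24. Without single mice, Acly on HFD ran from -0.12 to 0.059, Elovl5 on chow from -0.071 to 0.059, and in BAT Acly ran from -1.21 to 0.14, Elovl5 from -0.072 to 0.047, Me1 from -0.67 to 0.22 and Thrsp from -0.32 to 0.18. The causes were not tested.

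Genotypes share mouse numbers, and whether the numbers mark pairs is not known. Correlations of same-numbered deviations exceeded 0.1 in 1 of 8 pairs on HFD (0.718), 2 of 6 on chow (highest 0.183) and 3 of 6 in BAT (highest 0.425). The pair at 0.718 was number 2, whose KI and WT mice had the highest lymphocyte marker sums of their groups (613 and 416 CPM). The part of those cells in that correlation was not tested. Mice of different numbers were not compared, so the correlations cannot decide whether the numbers mark pairs. With mouse number as a replicate block, 3 members were called on HFD, 1 on chow (Acacb) and 0 in BAT. The tissue difference under the block, over mice 1 to 6, had 1 call (Acacb), with Elovl6 at 0.046.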
